A study of Mus musculus with 18 samples.

Results

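Nicotinamide nucleotide transhydrogenase (Nnt) and 9 genes for enzymes that remove superoxide and peroxides were followed through 3 fat depots of C57BL/6N mice. Members were the rows of the count table whose gene symbol was Nnt, Sod1, Sod2, Prdx3, Prdx5, Gpx1, Gpx4, Txn2, Txnrd2 or Cat. These 10 symbols took up 11 of 54347 rows, because 2 rows carried the symbol Nnt, and all 11 were among the 18728 rows with enough counts to be tested. The study asked what loss of Gm15551, a long noncoding RNA gene of adipose tissue, does to the fat of mice. Polyadenylated RNA came from interscapular brown (iBAT), inguinal white (iWAT) and epididymal white adipose tissue (eWAT) of 12-week-old ΔGm15551 (knockout) and wild type mice. Each mouse gave all 3 depots, so that 3 mice per genotype made up 18 libraries. Both groups were of the C57BL/6N substrain and were fed chow. The knockout was made with CRISPR/Cas9, which removed a stretch with exon 1 of Gm15551, and the line was backcrossed to wild type mice; the deletion is not limited to fat.

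Respiring mitochondria leak superoxide, which the manganese enzyme encoded by Sod2 in the matrix and the copper and zinc enzyme encoded by Sod1 in the cytosol and intermembrane space turn into hydrogen peroxide. Peroxide is then reduced by peroxiredoxins (Prdx3 in the matrix, Prdx5 in mitochondria, peroxisomes and cytosol), by glutathione peroxidases (Gpx1 for soluble peroxides, Gpx4 for lipid peroxides in membranes) or by catalase (Cat), which sits mainly in peroxisomes. Peroxiredoxins are recharged by mitochondrial thioredoxin (Txn2), thioredoxin by its reductase (Txnrd2), and glutathione by glutathione reductase, and both reductases draw on NADPH. Nnt, an enzyme of the inner mitochondrial membrane, uses the proton gradient to make NADPH from NADH. Mice of the C57BL/6J substrain carry a deletion in Nnt, whereas the C57BL/6N substrain used here keeps the gene whole. Brown fat burns fuel for heat in cells packed with mitochondria, and white fat stores triglyceride in cells with few.

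The libraries held between 14997901 and 34389586 counts each. Genes encoded by the mitochondrial genome took 22.9 to 27.0% of the iBAT counts, 3.99 to 9.64% of the iWAT counts and 3.77 to 5.81% of the eWAT counts, and levels are therefore given as CPM, counts scaled to a common library total, after correction of that total by the trimmed mean of M-values (TMM). Gm15551 itself had 40 to 316 counts in the wild type libraries and 0 to 4 in the knockout libraries. Each of 6 brown adipocyte markers passed the test as higher in iBAT against both white depots. Some white fat libraries were high in markers of other tissues. Summed lymphocyte markers reached 731 CPM in iWAT wt 3 and 305 CPM in iWAT ko 2 against at most 16.6 CPM in the other libraries, skeletal muscle markers reached 4231 CPM in iWAT ko 1, and epididymis markers reached 4821 CPM in eWAT ko 3. Where leaving out these 4 libraries changed the call of a member or other named gene in a depot comparison, changed a count of calls in a gene list or moved a fold by more than 1.5 times, the value without them is given in the same paragraph.

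The promoters of 9 members were read from RefSeq on GRCm38.p6, of which 4 are shown: Sod2, which among these 9 had the largest difference between brown and white fat, Sod1, its sister with a small one, Prdx3, a peroxidase gene that was also higher in iBAT, and Cat, which was not called between iBAT and iWAT. Each line gives the 250 bases before a RefSeq start of the gene in the direction of transcription. That start can differ from the start of the GENCODE M21 gene model. For Sod2 the stretch lies inside that model (chr17:13006846-13040063). Capitals mark 3 motifs, each searched on both strands. One is the antioxidant response element core, spelled TGACNNNGC. Another is the CCAAT box, searched by the letters of its name. The last is the Sp1 site, or GC box, with the letters GGGCGG.
Sod2, chr17:13007589-13007838, plus strand: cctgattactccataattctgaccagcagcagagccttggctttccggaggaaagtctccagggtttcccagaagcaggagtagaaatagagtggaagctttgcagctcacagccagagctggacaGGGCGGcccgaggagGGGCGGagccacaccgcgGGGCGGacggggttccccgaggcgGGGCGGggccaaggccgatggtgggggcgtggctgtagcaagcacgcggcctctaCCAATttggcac
Sod1, chr16:90220512-90220761, plus strand: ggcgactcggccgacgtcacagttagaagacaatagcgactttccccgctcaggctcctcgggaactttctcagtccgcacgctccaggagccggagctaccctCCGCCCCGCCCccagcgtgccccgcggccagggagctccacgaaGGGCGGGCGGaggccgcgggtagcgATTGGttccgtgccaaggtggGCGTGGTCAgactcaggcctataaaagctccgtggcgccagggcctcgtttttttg
Prdx3, chr19:60874539-60874788, minus strand: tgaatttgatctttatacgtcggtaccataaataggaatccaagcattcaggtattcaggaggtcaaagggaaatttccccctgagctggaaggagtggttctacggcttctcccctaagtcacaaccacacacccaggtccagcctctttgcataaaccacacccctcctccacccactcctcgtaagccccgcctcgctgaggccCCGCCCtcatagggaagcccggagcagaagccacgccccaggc
Cat, chr2:103485154-103485403, minus strand: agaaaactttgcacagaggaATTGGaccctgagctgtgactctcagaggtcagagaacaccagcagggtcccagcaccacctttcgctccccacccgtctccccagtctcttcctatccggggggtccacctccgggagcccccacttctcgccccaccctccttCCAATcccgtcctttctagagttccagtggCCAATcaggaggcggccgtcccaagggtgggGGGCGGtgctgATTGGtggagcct

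The 9 genes had 12 promoters, since Gpx4 has 4 starts and so more chances of a match. The core of the antioxidant response element, to which the transcription factor NFE2L2 binds, was found in 1 of the 9 genes, Sod1. It was in 1 of the 12 promoters and in 10.2% of all 32851 promoters of that length. GC boxes were found in 8 of the 9 genes, with Gpx1 the exception. They were in 10 of the 12 promoters and in 32.7% of all promoters. Sod2 and Sod1 held 4 each, some of the latter sharing bases. CCAAT boxes were found in 5 genes (Cat, Gpx4, Sod1, Sod2 and Txn2), in 7 of the 12 promoters and in 33.8% of all promoters. The Cat promoter held 4. Neither the estrogen-related receptor element (TNAAGGTCA, 1.14% of all promoters) nor the NRF1 core (CGCATGCG, 1.55%) was found in any member. A match describes the letters only.

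Nnt was lowest in iBAT, intermediate in iWAT and highest in eWAT. Counts of its 2 rows were summed for this comparison, since the rows could not be told apart as described further on. In iBAT the wild type libraries had 8.23, 6.16 and 7.95 CPM and the knockout libraries 6.03, 6.24 and 7.47 CPM. In iWAT they had 29.2, 24 and 29.2 and 32.1, 28 and 17.8 CPM, respectively. In eWAT they had 52.6, 50.5 and 53.1 and 55.7, 51.3 and 48.3 CPM. No library of one depot overlapped with those of another, and the single low iWAT library, ko 3, still stood above every iBAT library. The means were 7.01 ± 0.987, 26.7 ± 5.1 and 51.9 ± 2.52 CPM (SD, n = 6 mice). The level in iBAT was thus 3.81-fold below that in iWAT (log2 fold change −1.93 ± 0.13 SE, edgeR adjusted p = 5.03e-09) and 7.41-fold below that in eWAT (−2.89 ± 0.13, edgeR adjusted p = 8.17e-11). iWAT in turn was 1.94-fold below eWAT (−0.96 ± 0.12, edgeR adjusted p = 9.15e-05). Each iBAT value rests on 77 to 133 counts, each iWAT value on 486 to 900 and each eWAT value on 976 to 2116. Bulk RNA cannot tell fewer cells of a type from less RNA per cell, which applies to every level given here.

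The 2 Nnt rows (ENSMUSG00000025453.18, with 5 transcript models, and ENSMUSG00000116207.1, with 1) share one locus on the minus strand of chromosome 13 (GRCm38, chr13:119335448-119408997 and chr13:119335528-119408952). All 3339 exonic bases of the second row's model lie inside exons of the first, and the longest model of either row has 16 coding exons and 835 codons. A read from these exons could be assigned to either row. The first row took between 3.45% (iBAT ko 3) and 46.0% (iWAT ko 2) of the summed counts, with no fixed share in any depot. Both rows were nevertheless lower in iBAT on their own: the first with log2 fold changes of −3.66 and −3.88 against iWAT and eWAT, the second with −1.57 and −2.75. Between the white depots the second row was lower in iWAT (−1.18 ± 0.14 SE, edgeR adjusted p = 5.81e-05) and the first was not called (−0.22 ± 0.40, edgeR adjusted p = 0.78). The models come from the C57BL/6J reference genome. Reads from exons that the reference lacks could not be counted, and gene counts do not show which exons were transcribed.

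**Figure D1:**
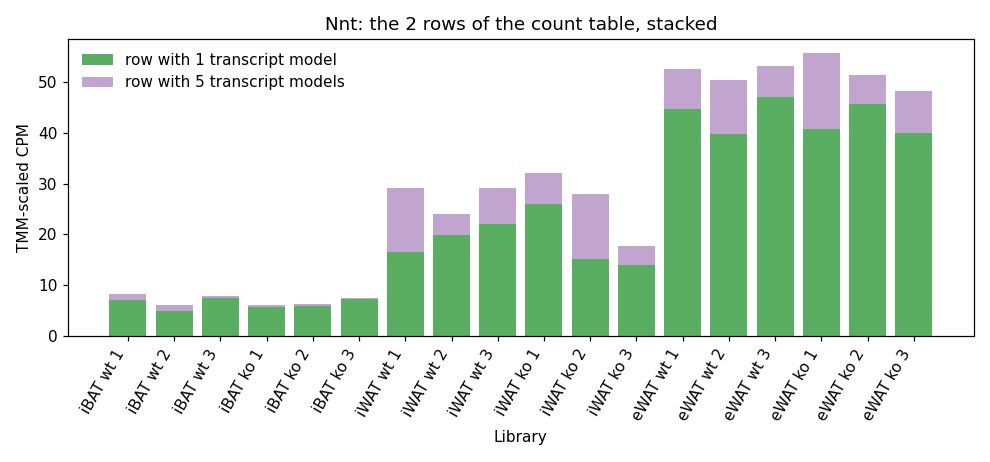
TMM-scaled CPM of the 2 Nnt rows (vertical axis) stacked for each of the 18 libraries (horizontal axis), green for the row with 1 transcript model and mauve for the row with 5. Stacks reach 6.03 to 8.23 CPM for iBAT, 17.8 to 32.1 for iWAT and 48.3 to 55.7 for eWAT, while the mauve part varies from library to library.

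Most antioxidant members moved in the opposite direction to Nnt. Between iBAT and iWAT, 7 of 11 rows were higher in iBAT, 2 were lower (both Nnt rows) and 2 were not called (Gpx1 and Cat). Of all genes tested, 24.0% were higher and 30.3% lower in iBAT. The median log2 fold change was 1.66 over the members and −0.145 over all genes. Against eWAT the same counts were 7 higher, 2 lower and 2 not called (Gpx1 and Cat), beside 24.4% of all genes higher and 30.2% lower, with medians of 1.26 and −0.175. Without the 4 libraries high in markers of other tissues, Sod1 was not called against iWAT (0.22, edgeR adjusted p = 0.346). Against eWAT Gpx1 was then called lower (−0.42, edgeR adjusted p = 0.0361) and Cat higher (0.45, edgeR adjusted p = 0.00777). With all 18 libraries, those of iBAT all stood above those of iWAT in 6 members and above those of eWAT in 8, a group that also took in Sod1 and Cat. The share of all genes that separate in this way was not computed, so these counts are not a result about the members.

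**Figure D2:**
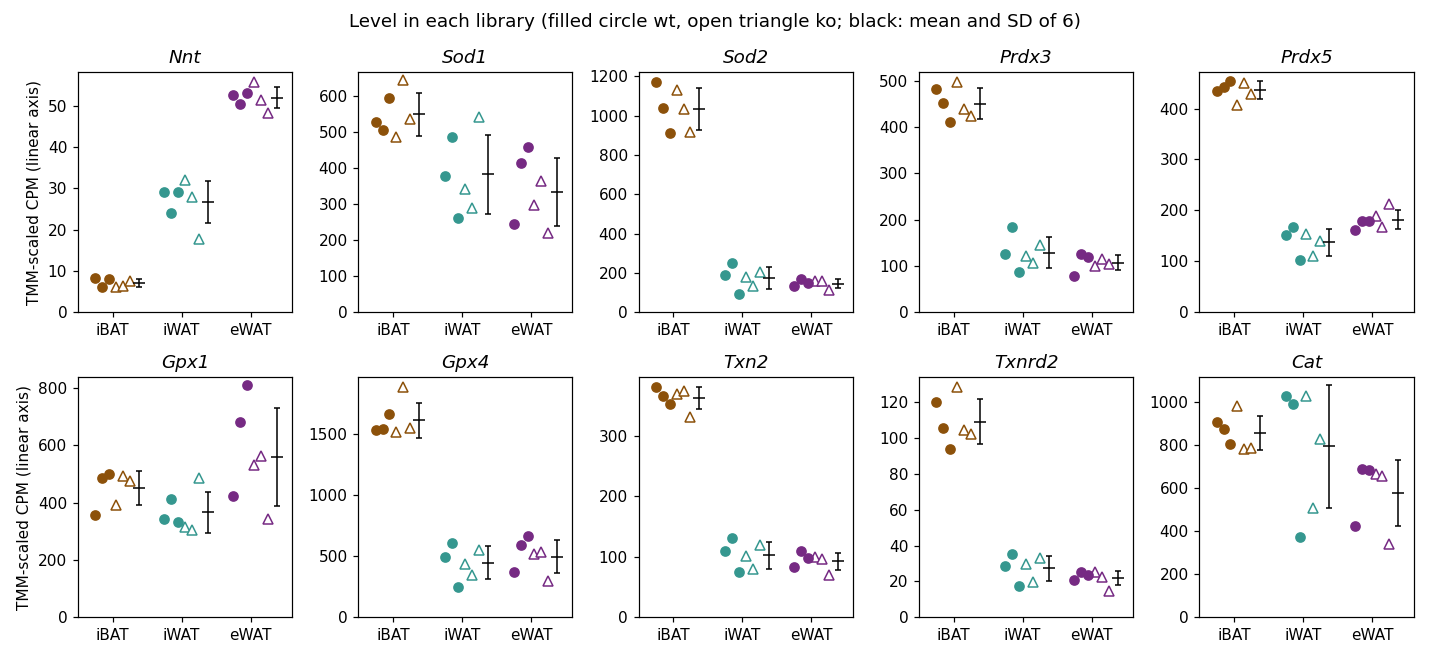
TMM-scaled CPM (vertical axis, linear from 0) of each member in the 3 depots (horizontal axis). Filled circles are wild type and open triangles knockout libraries, and the black bar gives the mean and SD of 6. Nnt rises from iBAT to eWAT, 6 genes from Sod2 to Txnrd2 are high in iBAT alone, and Sod1, Gpx1 and Cat differ less between depots.

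Among the superoxide dismutases, Sod2 differed most. Its lowest, median and highest libraries had 913, 1037 and 1169 CPM in iBAT, 91.3, 182 and 251 in iWAT and 111, 152 and 169 in eWAT. Every iBAT library was above every white fat library. Sod2 in iBAT exceeded iWAT 5.96-fold (log2 fold change 2.58 ± 0.20 SE, edgeR adjusted p = 2.34e-08) and eWAT 7.11-fold (2.83 ± 0.20, edgeR adjusted p = 5.78e-09). Sod1 had 549 ± 59.7 CPM in iBAT, 382 ± 110.3 in iWAT and 333 ± 95.1 in eWAT (SD, n = 6). It was 1.44-fold higher in iBAT than in iWAT (0.52 ± 0.20, edgeR adjusted p = 0.0373), where the libraries overlapped, and 1.65-fold higher than in eWAT (0.73 ± 0.20, edgeR adjusted p = 0.00600), where they did not. The call against iWAT was lost without the 4 libraries high in markers of other tissues (log2 fold change 0.22, edgeR adjusted p = 0.346) and when mice entered the fit as blocks (0.53, edgeR adjusted p = 0.0521). It was also lost when any one of the mice wt 1, wt 3, ko 1 or ko 2 was left out (0.39 to 0.53, edgeR adjusted p = 0.0724 to 0.180). Of 14 alternative settings, 9 did not keep this call against iWAT. The call against eWAT was lost in the fit of wild type libraries alone (0.54, edgeR adjusted p = 0.170). Of the related genes, the extracellular enzyme gene Sod3 was not called (log2 fold changes of 0.074 and −0.25 against iWAT and eWAT), whereas Ccs, the copper chaperone for the Sod1 product, rose by 1.51 and 1.37 with every iBAT library above every white fat library.

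Both mitochondrial peroxiredoxins were higher in brown fat. Prdx3 had 410.1, 445 and 498 CPM (lowest, median and highest library) in iBAT, 87.2, 124 and 184 in iWAT and 78.4, 109.5 and 126 in eWAT. Prdx5 had 406, 438 and 454 CPM in iBAT, 102, 146 and 168 in iWAT and 162, 179 and 213 in eWAT. In neither gene did iBAT overlap with white fat. Prdx3 was 3.51-fold higher than in iWAT and 4.2-fold higher than in eWAT (log2 fold changes 1.81 ± 0.16 and 2.07 ± 0.16 SE). Prdx5 was 3.17-fold and 2.4-fold higher (1.66 ± 0.12 and 1.26 ± 0.12). All 4 differences passed the test, with edgeR adjusted p of at most 1.49e-07. Prdx5 was also lower in iWAT than in eWAT (−0.40 ± 0.12, edgeR adjusted p = 0.0398), a call that 9 of 14 alternative settings did not keep, among them the fits without each of the 6 mice in turn (−0.47 to −0.33, edgeR adjusted p = 0.0530 to 0.133) and the fit without the 4 libraries high in markers of other tissues (−0.20, edgeR adjusted p = 0.170). Prdx5 shares 409 exonic bases with Trmt112 on the other strand, and Prdx3 has a pseudogene, Gm17907, with 4 to 62 counts per library, so that a few reads may have been misassigned.

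The thioredoxin pair that serves Prdx3 rose with it. Txn2 had 362 ± 18.4 CPM in iBAT, 103 ± 22 in iWAT and 92.8 ± 14.3 in eWAT (SD, n = 6). Txnrd2 had 109 ± 12.6, 27.3 ± 7.18 and 21.9 ± 3.93 CPM, respectively. The log2 fold changes against iWAT and eWAT were 1.82 ± 0.14 and 1.96 ± 0.14 SE for Txn2, and Txnrd2 was 4.98-fold higher than in eWAT and passed the test against both depots, with edgeR adjusted p of at most 8.73e-08. No iBAT library overlapped with a white fat library. The cytosolic pair differed less, with Txn1 at 0.62 and 0.64 and Txnrd1 at 0.87 and 0.63 on the log2 scale, all passing the test.

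The glutathione peroxidases parted from each other. Gpx4 had 1515, 1544 and 1884 CPM (lowest, median and highest library) in iBAT, 248, 464 and 607 in iWAT and 302, 526 and 663 in eWAT. Brown fat exceeded iWAT 3.61-fold (1.85 ± 0.22 SE, edgeR adjusted p = 2.74e-06) and eWAT 3.24-fold (1.70 ± 0.22, edgeR adjusted p = 5.49e-06). Gpx4 counts join a mitochondrial, a nuclear and a cytosolic form, and a copy, Gpx4-ps2, had 0 to 63 counts. Gpx1 was level across depots by comparison, with 358, 479.8 and 499 CPM in iBAT, 304, 338 and 485 in iWAT and 344, 546 and 811 in eWAT. The iBAT libraries overlapped with both white depots, and the log2 fold changes were 0.30 ± 0.18 (edgeR adjusted p = 0.178) and −0.30 ± 0.18 (edgeR adjusted p = 0.175). Without the 4 libraries high in markers of other tissues the difference from eWAT was −0.42 and passed the test (edgeR adjusted p = 0.0361), as it did without the mouse ko 3 alone (−0.43, edgeR adjusted p = 0.0423). Gpx1 was lower in iWAT than in eWAT (−0.60 ± 0.18, edgeR adjusted p = 0.047), which 9 of 14 alternative settings did not keep, among them the fit without the 4 libraries (−0.54, edgeR adjusted p = 0.103), the fit with mice as blocks (adjusted p = 0.0581) and those without wt 1, wt 2, wt 3, ko 1 or ko 2 (−0.64 to −0.45, edgeR adjusted p = 0.0649 to 0.182).

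Cat had 907, 873 and 802 CPM in the wild type and 983, 781 and 787 CPM in the knockout libraries of iBAT. In iWAT the values were 1028, 991 and 375 and 1026, 509 and 828 CPM, and in eWAT 425, 690 and 683 and 665, 656 and 338 CPM. The low values in iWAT belonged to wt 3 and ko 2, the libraries high in lymphocyte markers, and those in eWAT to ko 3, high in epididymis markers, and wt 1. The log2 fold change of iBAT was 0.11 ± 0.24 SE against iWAT (edgeR adjusted p = 0.727) and 0.57 ± 0.24 against eWAT (edgeR adjusted p = 0.0558), although all iBAT libraries were above all eWAT libraries. Without the 4 libraries the difference of iBAT from eWAT was 0.45 and passed the test (edgeR adjusted p = 0.00777). Without the mouse wt 3 it was 0.64 (edgeR adjusted p = 0.0272), and it was called in 4 of 14 alternative settings. A higher level in iWAT than in eWAT also passed the test without the 4 libraries (0.60, edgeR adjusted p = 0.0219). Of 11 other peroxisome genes, 8 were higher in iBAT than in iWAT and 10 higher than in eWAT, and none was lower. These counts stand beside the 24.0% and 24.4% of all genes higher given above. Without the 4 libraries 8 and 11 were higher and none lower, beside 20.7% and 25.7% of all genes higher. Abcd3, a peroxisomal fatty acid transporter, led with 2.21 and 2.32.

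Between the white depots few members differed. No row was higher in iWAT than in eWAT and 3 were lower (the second Nnt row, Prdx5 and Gpx1), beside 5.70% of all genes higher and 4.50% lower. Without the 4 libraries, 3 rows were higher in iWAT (Sod2, Txnrd2 and Cat, by 0.49, 0.47 and 0.60 on the log2 scale) and 1 was lower, the second Nnt row. In that fit 5.70% of all genes were higher and 4.55% lower. The Nnt difference was the one that held in each of the 14 alternative settings, at −1.18 to −0.89 for the summed rows.

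**Figure D3:**
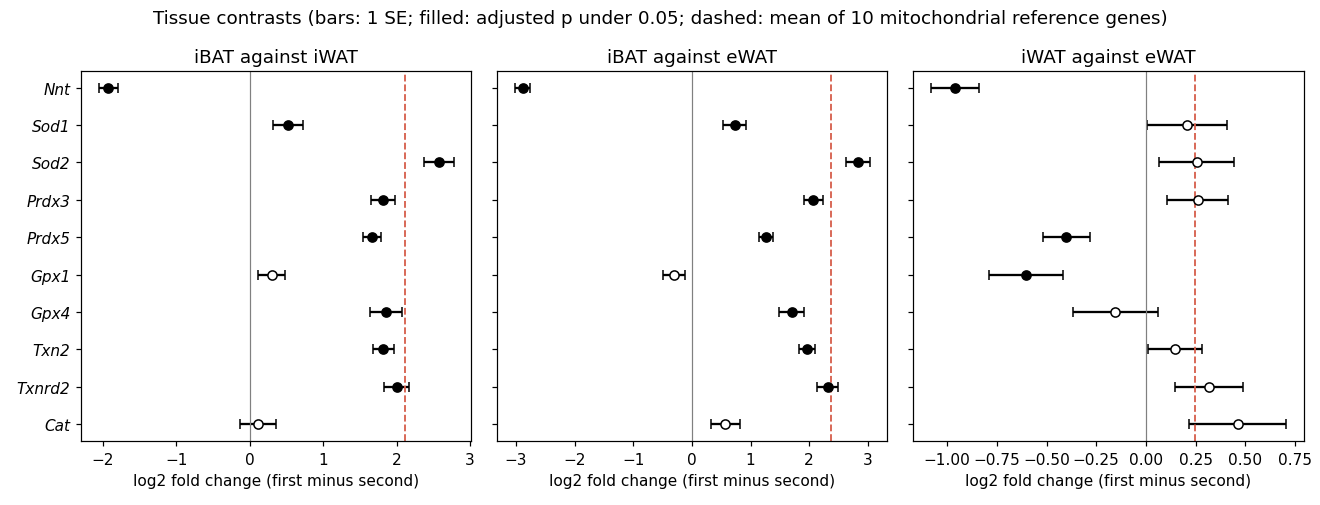
Log2 fold change (horizontal axis, first depot minus second, ± 1 SE) of each member (vertical axis) in the 3 depot comparisons; filled points passed the test, and the dashed line is the mean difference of 10 mitochondrial reference genes. In both iBAT panels Nnt alone is filled to the left of 0 and Sod2 alone lies to the right of the dashed line.

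Levels can be ordered between genes only per length. Per kilobase of merged exon, iBAT held Gpx4 first (1268 CPM per kb), then Sod1 (857), Gpx1 (420), Cat (327), Prdx3 (305), Prdx5 (301), Sod2 (176), Txn2 (93), Txnrd2 (31.6) and Nnt (1.6). Cat, Prdx3 and Prdx5 lay within their spread of each other. In iWAT Sod1 had the highest mean (597 CPM per kb), but its libraries overlapped with those of Gpx4 and Gpx1. Gpx4, Gpx1 and Cat (351, 341 and 303) could not be ranked within their spread, and Nnt was again last (6.08), close to Txnrd2 (7.9). In eWAT Gpx1 and Sod1 had the highest means (521 and 519.7), and the libraries of Gpx4 (391) overlapped with both. Nnt (11.8) there stood above Txnrd2 (6.34) with no overlap. The reductase for thioredoxin and the transhydrogenase thus changed places between brown and epididymal fat, Txnrd2 from 31.6 to 6.34 and Nnt from 1.6 to 11.8 CPM per kb. The order depends on the length used, here the summed exons of the coding models of each gene, such as 5861 bases for Sod2. Per kilobase of the transcript with the longest coding sequence, Prdx5 stood at 577 CPM per kb in iBAT, above Gpx1 (420), and Txn2 at 177, level with Sod2 (176). Nnt was below Txnrd2 in iBAT on that scale too (2.02 and 37.9) and above it in eWAT (15 and 7.62).

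Brown fat has more mitochondria, and 10 nuclear genes for other mitochondrial proteins (Cs, Sdha, Ndufs1, Uqcrc1, Cox4i1, Atp5a1, Vdac1, Tomm20, Hspd1 and Hspa9) were used as a reference. Each of the 10 exceeded both white depots in iBAT, and their mean log2 level was 2.12 above iWAT and 2.36 above eWAT. Each member was then taken as a log2 ratio to that mean and compared within each mouse. Relative to the reference, Sod2 alone was higher in iBAT, by 0.52 ± 0.11 against iWAT and 0.47 ± 0.042 against eWAT (SD, n = 6 mice, higher in 6 of 6 mice). That direction depended on the reference: with Cs, the gene for citrate synthase, alone, Sod2 was still higher than in iWAT (0.21, exact sign-flip test, adjusted p = 0.0391) but its difference from eWAT was −0.05 and was not called (exact test, adjusted p = 0.656), and with the sum of the 13 mitochondrially encoded protein genes it was −0.04 against iWAT (exact test, adjusted p = 0.594) and −0.41 against eWAT (exact test, adjusted p = 0.0391). Nnt was lower by the widest margin (−4.02 ± 0.65 and −5.25 ± 0.25), and the next 3 were Gpx1 (−1.81 ± 0.23 and −2.63 ± 0.29), Cat (−1.92 ± 0.30 and −1.75 ± 0.22) and Sod1 (−1.55 ± 0.19 and −1.60 ± 0.21). Prdx3, Prdx5 and Txn2 were lower in all 6 mice, with means of −1.10 to −0.27 and single mice from −1.62 to −0.047. Txnrd2 was not called (−0.084 ± 0.079 and −0.039 ± 0.11), and Gpx4 was lower against eWAT (−0.62 ± 0.24) and not called against iWAT (−0.21 ± 0.25). Both of these depended on the reference as well: relative to Cs alone, Txnrd2 was lower against iWAT and eWAT (−0.40 and −0.56) and Gpx4 lower against iWAT (−0.52), and relative to the mitochondrially encoded sum the same 3 differences were −0.64, −0.92 and −0.77 (exact tests, adjusted p = 0.0391 for each). In all, 1 gene was higher and 7 lower against iWAT, and 1 higher and 8 lower against eWAT. The reference itself was high in iBAT, and 92.3% of all 18728 genes were lower in all 6 mice on the same ratio against iWAT and 92.1% against eWAT (1.55% and 1.68% higher), with median differences of −2.25 and −2.53, and the counts of lower members are not a result about the members. With Cs alone 9 members were lower against either white depot (94.4% of all genes in both), and with the mitochondrially encoded sum 9 and 10 (95.3% and 95.9%). Each call relative to the 10 genes had the smallest p that the exact two-sided sign-flip test over 6 mice allows (p = 0.03125, adjusted over 30 comparisons p = 0.0446), so that the test cannot rank them. Between the white depots 4 members, beside 12.9% of all genes, were lower in iWAT relative to the reference, namely Nnt (−1.23 ± 0.70), Gpx1 (−0.82 ± 0.26), Prdx5 (−0.67 ± 0.44) and Gpx4 (−0.41 ± 0.30). With Cs alone Sod1 was called too (−0.25), and with the mitochondrially encoded sum Gpx4 was not called (exact test, adjusted p = 0.0721) while Prdx3 (−0.34) and Txn2 (−0.44) were.

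**Figure D4:**
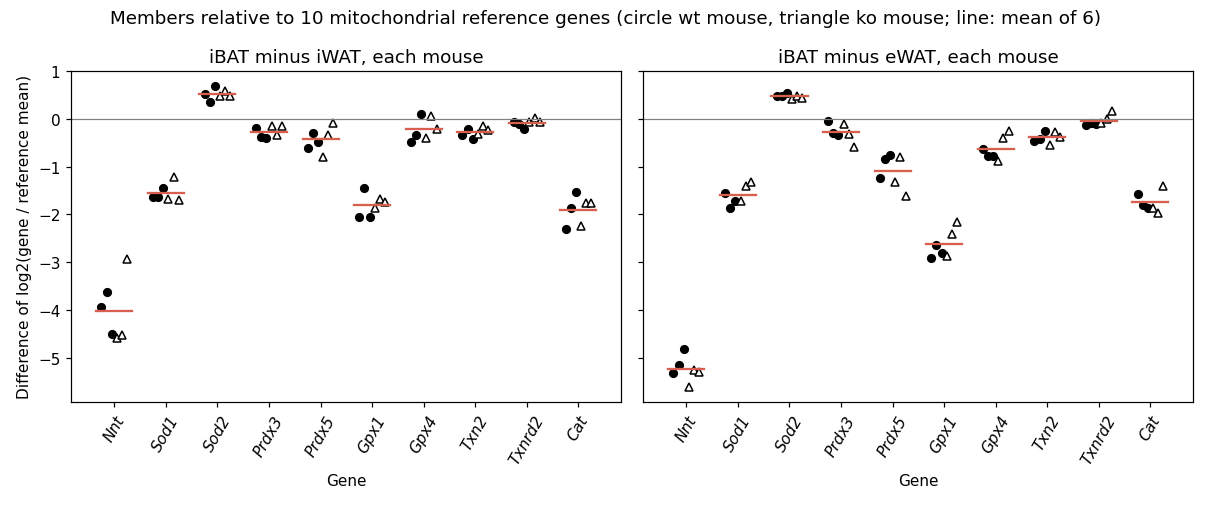
Difference between iBAT and each white depot in the log2 ratio of a member to the mean of 10 mitochondrial reference genes (vertical axis) for each member (horizontal axis). Each point is 1 mouse (circle wild type, triangle knockout) and the line is the mean of 6. With this reference Sod2 points all lie above 0, and Nnt points lie between −5.61 and −2.94.

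Within depots, several members varied together and with adipocyte markers. After the mean of each depot and genotype was subtracted, log2 levels of Txn2 correlated with those of Txnrd2 at r = 0.95 and of Sod2 at r = 0.95 over the 18 libraries, and Sod2 correlated with the mitochondrial reference at r = 0.99. Summed adipocyte markers correlated with Cat at r = 0.95, with Sod2 at r = 0.86 and with Gpx4 at r = 0.94, and lymphocyte markers with Prdx5 at r = −0.83. For Nnt r was −0.091 with adipocyte markers, 0.051 with lymphocyte markers and −0.34 with the reference, and −0.44 to −0.06 with the other members. Over the 14 libraries left without the 4 high in markers of other tissues, Txn2 correlated with Txnrd2 at r = 0.77 and with Sod2 at 0.89, Sod2 with the reference at 0.95, adipocyte markers with Cat at 0.69, with Sod2 at 0.19 and with Gpx4 at 0.92, and lymphocyte markers with Prdx5 at 0.19. The relations of adipocyte markers with Sod2 and of lymphocyte markers with Prdx5 did not hold without the 4 libraries. For Nnt the values were then −0.0025 with adipocyte markers, −0.41 with lymphocyte markers and −0.49 with the reference. All are a description, in which the points share mice and scaling. Adipocyte markers summed to 10046 CPM in iWAT wt 3, 14532 in iWAT ko 2, 12784 in eWAT ko 3 and 20114 in eWAT wt 1, against 25064 to 29837 in the other 8 white fat libraries. In these libraries low in adipocyte markers Nnt had 29.2, 28, 48.3 and 52.6 CPM, within the range of the others of its depot or just below it. The part of cell mixture in the differences between depots was not tested.

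**Figure D5:**
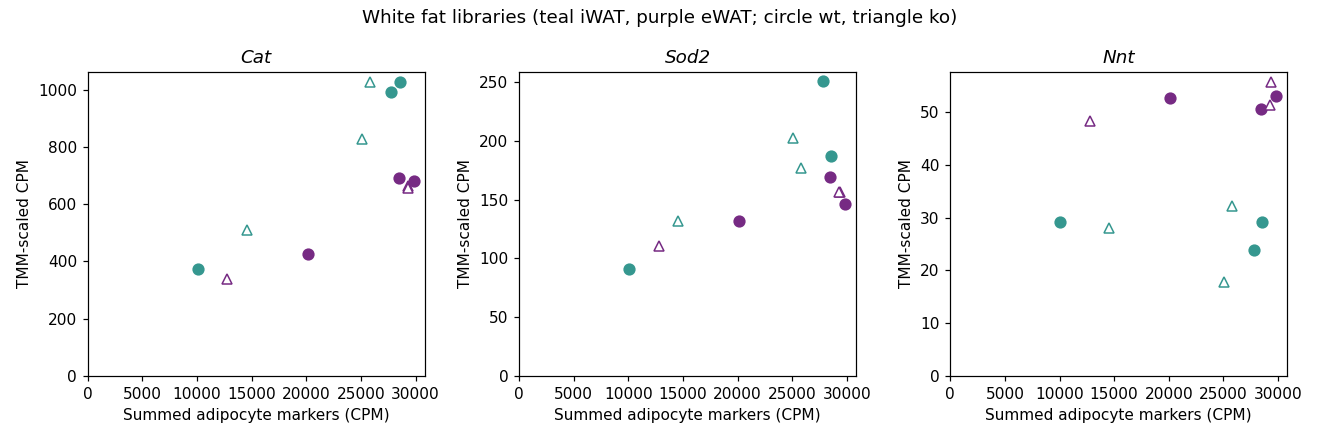
Level of Cat, Sod2 and Nnt (vertical axis, TMM-scaled CPM) against the summed level of 6 adipocyte markers (horizontal axis, CPM) in the 12 white fat libraries. Cat and Sod2 reach 338 and 91.3 CPM in the libraries low in markers, most of which are among the 4 high in markers of other tissues, and Nnt keeps to 17.8 to 32.1 CPM in iWAT and 48.3 to 55.7 in eWAT.

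The genes whose log2 level was most like that of Nnt over the 18 libraries were Cers4 (r = 0.983), Sema5a (0.981), Cachd1 (0.980), Lrrc49 (0.978) and Hpgd (0.977). The points share the order of the depots. With the mean of each depot and genotype subtracted, Fig4 (0.818), Xxylt1 (0.812), Tcf20 (0.780), Tmem45a (0.773) and Itgbl1 (0.772) came first, with all 18 libraries included.

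Genes for other sources of mitochondrial NADPH moved both ways. Of 8, 3 were higher and 2 lower in iBAT, against iWAT as against eWAT. The counts for this list and the lists that follow stand beside 24.0% of all genes higher and 30.3% lower against iWAT, and 24.4% and 30.2% against eWAT, and some are near those shares. In the fit without the 4 libraries high in markers of other tissues, the shares were 20.7% and 24.6% against iWAT, and 25.7% and 31.4% against eWAT. Idh2, the NADP-dependent isocitrate dehydrogenase of the matrix, rose by 1.95 ± 0.14 and 2.06 ± 0.15 on the log2 scale (edgeR adjusted p = 1.52e-08 and 5.32e-09). Me3, a mitochondrial malic enzyme, rose from 2.03 CPM in iWAT and 1.61 in eWAT to 77.1 CPM in iBAT, by 5.25 and 5.59. Nadk2, the mitochondrial NAD kinase, rose by 1.58 and 1.74. In the other direction, Me2 fell by 0.91 and 1.26, Aldh1l2, a folate enzyme, was lower than in iWAT (−1.55) and Mthfd2, another folate enzyme, lower than in eWAT (−3.02). The means of Me2 were 9.84 CPM in iBAT, 18.5 in iWAT and 23.6 in eWAT, but its iWAT libraries overlapped with both other depots and it was not called between the white depots (−0.35). Without the 4 libraries high in markers of other tissues Me2 was not called against iWAT (−0.30, edgeR adjusted p = 0.0917), and Mthfd2 stood at −2.20 against eWAT. Aldh1l2 was then also called against eWAT, as higher in iBAT (1.03, edgeR adjusted p = 0.0374). The list then had 3 higher and 1 lower against iWAT, and 4 higher and 2 lower against eWAT. Glud1 and Mthfd2l were not called. Of 6 genes for NADPH supply outside mitochondria, 3 were higher and none lower in iBAT than in iWAT, and 4 were higher and 1 lower than in eWAT. G6pdx and Pgd of the pentose phosphate pathway and Nadk were higher in iBAT than in both white depots (log2 fold changes of 1.21, 1.46 and 0.70 against iWAT, and 1.08, 1.37 and 0.80 against eWAT). Me1, the cytosolic malic enzyme, was higher than in eWAT (1.67), and H6pd, hexose-6-phosphate dehydrogenase of the endoplasmic reticulum, was lower (−0.59).

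Of 11 genes for glutathione synthesis, transport and recycling, 7 were higher and 1 lower in iBAT than in iWAT, and 6 higher and 2 lower than in eWAT. Without the 4 libraries the counts were 6 and 1 against iWAT, and 7 and 1 against eWAT. Slc25a39, a carrier that takes glutathione into mitochondria, rose by 1.65 and 1.79 on the log2 scale and Gss, glutathione synthetase, by 1.15 and 0.93. Glutaredoxin genes rose too, with Glrx5 at 1.03 and 0.81, Glrx at 0.74 and 0.94 and Glrx2 at 0.68 and 0.66. Gsr, glutathione reductase, was lower in iBAT (−0.63 and −0.70), with every iBAT library below every white fat library, as for Nnt. Slc7a11, the cystine carrier, stood at −3.69 against eWAT, but without eWAT ko 3, the library high in epididymis markers, at −0.69 (edgeR adjusted p = 0.498), so that the call rests on that library. Gclc and Gclm, whose products make the first step of synthesis, were not called. Gclm was called higher in iBAT without the 4 libraries (0.42 and 0.57).

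Among peroxiredoxins and glutathione peroxidases of other compartments, 7 of 10 had enough counts to be tested. Against iWAT 4 of them were higher in iBAT and 2 lower, and against eWAT 4 and 3. Prdx2 was higher (1.19 and 1.22), as was the secreted Gpx3 (2.08 and 1.39), whose libraries overlapped. Prdx4 and Gpx7, of the endoplasmic reticulum, were lower (−0.59 and −1.15 against iWAT). Gpx8 was low in eWAT, with 102 CPM in iBAT, 77.2 in iWAT and 19.7 in eWAT, and was not called against iWAT (0.40), where the libraries overlapped. Of 9 genes for thioredoxins and the repair of oxidised sulfur, 6 were higher and 1 lower than in iWAT, and 5 higher and 1 lower than in eWAT. The counts without the 4 libraries were 5 and 1, and 5 and 2. Msrb2, a methionine sulfoxide reductase of mitochondria, rose by 2.06 and 2.31, and Srxn1, which restores overoxidised peroxiredoxins, by 1.57 and 0.96. Selenium is part of the Gpx1, Gpx4 and Txnrd2 proteins, and of 8 genes for selenoprotein synthesis and supply 4 were higher and 2 lower than in iWAT, led by Sephs2 (1.53) and Pstk (1.34), and 5 higher and 2 lower than in eWAT.

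Genes of the NFE2L2 pathway did not move one way. The factor itself was not called (Nfe2l2, 0.088 and 0.017 on the log2 scale), its repressor Keap1 was higher in iBAT (0.43 and 0.45), and of 8 genes 3 were higher and 3 lower than in iWAT, and 3 higher and 4 lower than in eWAT. With the 4 libraries left out 2 rather than 3 were lower than in iWAT. Nqo1 was lower (−1.77 and −2.74), as was Hmox1 (−1.54 and −0.88), while Gsta4, a transferase that clears lipid aldehydes, was higher (1.47 and 2.04). Without the 4 libraries Nqo1 stood at −2.02 against eWAT and Hmox1 at −0.73 against iWAT, both still lower. Of 9 genes for enzymes that make superoxide or peroxide, 2 were higher and 5 lower in iBAT, against iWAT as against eWAT. With the 4 libraries left out 7 rather than 5 were lower than in eWAT. Cybb, Cyba and Ncf1, which encode subunits of the phagocyte NADPH oxidase, were among the lower ones (between −3.84 and −2.66 against iWAT, and −2.52 and −1.81 against eWAT). The values against iWAT without the 4 libraries were −1.87 for Ncf1, −1.44 for Cyba and −1.28 for Cybb, all still lower. All 6 macrophage markers were lower too, at 53.9 to 139 CPM summed in iBAT against 241 to 1460 in iWAT and 143 to 531 in eWAT, and their part in this result was not tested. Maob, a monoamine oxidase of the outer mitochondrial membrane, was higher (0.99 and 0.52), although without eWAT ko 3 alone the call against eWAT was lost (0.42, edgeR adjusted p = 0.063).

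Loss of Gm15551 moved no member past the test. Across depots 0 of 11 rows were called in edgeR, beside 0.00534% of all genes, and none had an unadjusted p under 0.05. Log2 fold changes of knockout against wild type lay between −0.35 (the first Nnt row) and 0.0067 (Prdx5), and with the Nnt rows summed the value was −0.085 ± 0.10 SE. This fit took the 3 depots of a mouse as independent libraries. With counts summed per mouse, or with the mouse as a random effect, 0 rows were called as well. Within iBAT, iWAT and eWAT 0 rows were called, beside 0%, 0% and 0.00534% of all genes, and 0 rows by DESeq2. Summed Nnt differed by −0.18 ± 0.19, −0.08 ± 0.18 and −0.0077 ± 0.18, with overlapping libraries in each depot. The 1 row with an unadjusted edgeR p below the threshold of 0.05 was the first Nnt row in iBAT (unadjusted p = 0.0135 in the fit across all genes, edgeR adjusted p = 1), at 3, 5 and 4 counts in the knockout against 18, 20 and 8 in the wild type libraries. The second Nnt row, with which it shares exons, had 5.79, 5.86 and 7.21 CPM in knockout and 7.12, 4.86 and 7.43 CPM in wild type iBAT.

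The widest difference between genotypes among the other members was that of Gpx1 in eWAT, with 423, 682 and 811 CPM in wild type and 532, 561 and 344 CPM in knockout libraries (−0.42 ± 0.26 SE, edgeR adjusted p = 1). The groups overlapped, and the lowest value was that of ko 3, the library high in epididymis markers. Sod1 in eWAT differed by −0.34 ± 0.29 and Gpx4 by −0.27 ± 0.32, with the same library lowest. In iBAT the 9 members other than Nnt differed by −0.051 to 0.067. The interaction of genotype with depot was called for 0 of 11 rows, beside 0% of all genes, with 0 rows at an unadjusted p under 0.05. None of the genes listed for NADPH supply, glutathione, thioredoxin, selenoprotein synthesis, peroxisomes, NFE2L2 or superoxide production was called in any genotype comparison. The standard errors, of 0.10 to 0.35 across depots and 0.17 to 0.62 within a depot, leave room for changes that 3 mice per genotype cannot show. Those across depots come from the fit that took the depots of a mouse as independent, and may be too small.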

How the data were processed

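Adipose tissue RNA of 6 mice was sequenced as 18 polyA libraries. The deposited table holds whole-number counts per gene, which the authors made by trimming reads with cutadapt and estimating transcript abundance with salmon on the GENCODE M22 transcriptome of GRCm38; whether strand was used is not given in the sources used here. Gene symbols came from the table and gene models from GENCODE M21. Estimated reads can move between rows with shared exons, which applies to the 2 Nnt rows.

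Counts were analysed with edgeR 4.0.16 in R 4.3.3 after filterByExpr by group and TMM scaling. Depots and genotype across depots were compared by the quasi-likelihood test in a model of tissue and genotype, and genotype within depots and the interaction in a model with 1 mean per group. P-values were Benjamini-Hochberg adjusted over all 18728 genes, with calls at 0.05. Ratios to the mitochondrial reference used log2 CPM with a prior count of 2 and an exact two-sided sign-flip test over 6 mice, adjusted over 30 comparisons. limma 3.58.1 and DESeq2 1.42.0 served for alternatives. Summing the Nnt rows, and leaving out 4 libraries or eWAT ko 3 for listed genes and correlations, and scaling levels by transcript length, were chosen after seeing the data. The members and gene lists were chosen with earlier results of these data known. Named genes were Gm15551, the members, up to 4 genes of each other list per depot comparison with the largest absolute log2 fold change among those called, the 5 genes most correlated with Nnt before and after subtraction of group means, and pseudogenes of members. Gclc, Gclm, Glrx2, Glud1, Gsr, H6pd, Keap1, Maob, Me2, Mthfd2l, Nfe2l2, Prdx4 and Sod3 fall outside that rule and were named after their values were seen. Some results are not reported here.

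Groups came from the labels, which also give the mouse: the same number within a genotype is the same mouse in all depots, so the depots are paired, and deviations from group means correlated between depots of a mouse at r = −0.165 to 0.326. On simulated counts for iBAT against iWAT over 18728 genes, 40% of changes of 1 and 68% of changes of 2 on the log2 scale were recovered. For knockout against wild type in iBAT the rates were 17% and 56%. Only 100 genes were changed at each size, and 114 genes were called in the simulation of iBAT against iWAT. The data gave 10164 calls for that comparison, so the simulated rates do not give its sensitivity. Counting intervals are not given, since the replicate spread is wider.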

Additional observations from a re-analysis of the deposited data

How the results depend on the processing

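Calls for the 11 rows kept to 6 to 7 higher and 1 to 2 lower for iBAT against iWAT, and 6 to 8 higher and 1 to 3 lower for iBAT against eWAT, over 14 alternatives; summed Nnt was called in the same direction in each. Lower calls fell to 1 in both iBAT comparisons where 10 counts were required in every library, since the first Nnt row then left the test. For iWAT against eWAT, lower calls were 1 with no filter, without the 4 libraries high in markers of other tissues and in wild type libraries alone, and 1 to 2 when 1 mouse was left out; higher calls were 3 without the 4 libraries. Relative to Cs alone no member was higher in iBAT than in eWAT (0), and Sod2 stood at −0.0466 (0.206 against iWAT, still higher). Relative to the mitochondrially encoded sum 0 members were higher against either white depot, and Sod2 stood at −0.0361 and −0.413. The cause was not tested. With the mouse as a replicate block summed Nnt was −1.91, −2.89 and −0.97 in the 3 depot comparisons, and calls for Sod1 (iBAT against iWAT) and Gpx1 (iWAT against eWAT, adjusted p = 0.0581 in edgeR) were lost. Genotype calls were 0 in every alternative, DESeq2 included. The mouse IDs of a wild type and a knockout mouse with the same number are close, but no label names a shared litter or day: correlations of deviations ran from −0.465 to 0.551, the own number was best in 2, 1 and 1 of 3, and the replicate block left the Nnt difference across depots at −0.08. Over all genes, DESeq2 called 2705 for iWAT against eWAT and edgeR 1911. With wild type libraries alone the calls over all genes fell to 6595 and 6574 for iBAT against iWAT and eWAT, and to 247 for iWAT against eWAT. Their highest numbers for iBAT were 10528 against iWAT (without the mouse ko 3) and 11513 against eWAT (without the 4 libraries). The number of genes tested also differed between settings, so the counts of rows called are to be read beside these. Depth limits the first Nnt row in iBAT, at 3 to 20 counts.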

Other observations

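Of the glutathione peroxidases with too few counts to be tested, Gpx5, a secreted enzyme of the epididymis, had 279 counts (13.8 CPM) in eWAT ko 3 and 23 counts in eWAT wt 3, and Gpx6 had 5 counts in eWAT ko 3. The same eWAT ko 3 library held the epididymis markers described above.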
